A study of Mus musculus with 6 samples.

Results

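Transcripts of the genes that make fatty acids and cholesterol were examined in HL-1 cells, a line of mouse atrial cardiomyocyte origin, after transfection with an LNA-gapmer against the long noncoding RNA Malat1 (LNA Malat1) or a control LNA-gapmer (LNA Control). The members were taken from a list of 49 named SREBP-pathway, desaturase, lipogenesis, and cholesterol synthesis genes, of which 47 are among the 21269 genes of the deposited table. Elovl6 and Thrsp were not analysed here. All 6 libraries, 3 per group, came from cells seeded 24 hours before transfection with 50 nM of gapmer in medium with serum and norepinephrine and collected 48 hours after it. A gapmer is an oligonucleotide with a DNA core and locked nucleic acid at its ends, and the RNA it binds is cut by RNase H. No separate cultures are stated for the libraries, so p-values measure only the spread between these samples. A single cell line and, as far as the labels tell, a single gapmer sequence per group stand behind each comparison.

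Cells make cholesterol from acetyl-CoA through mevalonate, squalene, and a series of sterol intermediates, and make saturated fatty acids from the same precursor through malonyl-CoA. The SREBP transcription factors drive the enzymes of both routes. They are held in the endoplasmic reticulum by SCAP and the INSIG proteins while sterols are plentiful and are released when sterols fall. The liver X receptors sense oxysterols and promote sterol efflux and the desaturation of fatty acids. The heart mainly burns fatty acids that it takes up from the blood.

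The deposited values are read counts scaled by the authors with 1 factor per library and rounded, called normalized counts here. They summed to between 4831007 and 4921406 in LNA Control and to between 4758777 and 4762957 in LNA Malat1, and the reads on genes recovered from the rounding were between 4511603 and 5594499 per library. Replicates 1 and 3 of LNA Malat1 differed by less than the sampling noise over 14522 genes (chi-square 0.95 per gene) and were counted as 1 sample in each mean ± SD of that group, which leaves n = 2. In the 1753 genes with at least 1600 reads they did differ, at a chi-square of 1.10 per gene (chi-square test over genes, p = 0.0029). For the 3 pairs of controls the chi-square per gene was 1.77, 2.09, and 4.18 over genes with at least 20 reads, the cut of the first comparison, and 4.25, 6.18, and 14.93 over those with at least 1600. At these cuts it was 1.01 and 1.66 between LNA Malat1 replicates 1 and 2, and 1.16 and 2.02 between replicates 2 and 3. Every pair of LNA Malat1 libraries was thus closer to the sampling noise than any pair of controls. Counting replicate 2 as a separate sample may therefore overstate the replication of LNA Malat1, and so may the tests on all libraries. Genes with a mean of at least 5 were tested with limma in all 6 libraries on log2(normalized count + 1), a scale that understates the change of low genes. Malat1 itself was at 57.2% of LNA Control (log2 fold change -0.80, SE 0.07, adjusted p = 7.5e-06), with every LNA Malat1 library below every LNA Control library.

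Most lipid synthesis genes differed little between the groups, and a few differed by 1.5-fold or more, Scd1 and Nsdhl by the most. Scd1, a stearoyl-CoA desaturase, and Nr1h3, which encodes the liver X receptor LXRα, rose. The sterol enzymes Nsdhl and Ebp and the sterol exporter Abcg1 fell. Nr1h3 and Abcg1 were at low counts, and their differences missed the threshold when some single libraries were left out. Of the 47 members, 46 passed the filter on low values and Mylip, a ubiquitin ligase that degrades lipoprotein receptors, did not, at 3, 0, and 3 in the controls against 1, 2, and 2 after LNA Malat1. With the adjusted p no higher than 0.05 and a change of 1.5-fold or more, 2 members rose and 3 fell, where 8.0% of all 15650 genes tested rose and 2.92% fell. These are 1252 and 457 genes, but 748 and 718 after quantile normalization. At the adjusted p alone, 3 members were higher and 12 lower, that is 6.52% and 26.1% of the 46, against 14.3% and 14.0% of all genes. Among the 41 members with a mean of at least 50, 1 was higher and 11 were lower (26.8%), where 19.7% of the 10490 genes of that level were lower. Every LNA Malat1 library was above every control library for 6 of 46 members and below for 16, against 20.5% and 20.8% of all genes. With a mean of at least 50 this held for 7.32% and 36.6% of the 41 members, against 17.2% and 28.5% of such genes. The median log2 fold change of the members was -0.05, beside 0.02 for all genes tested. The 95% interval of the difference lay inside a 1.5-fold change in either direction for 37 of the 46 members (80.4%), against 58.9% of all genes. With a mean of at least 50 it did so for 37 of the 41 members (90.2%), against 84.1% of genes of that level. With LNA Malat1 replicates 1 and 3 as 1 sample, 1 member rose and 2 fell, and at the adjusted p alone 1 was higher and 7 were lower.

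**Figure D1:**
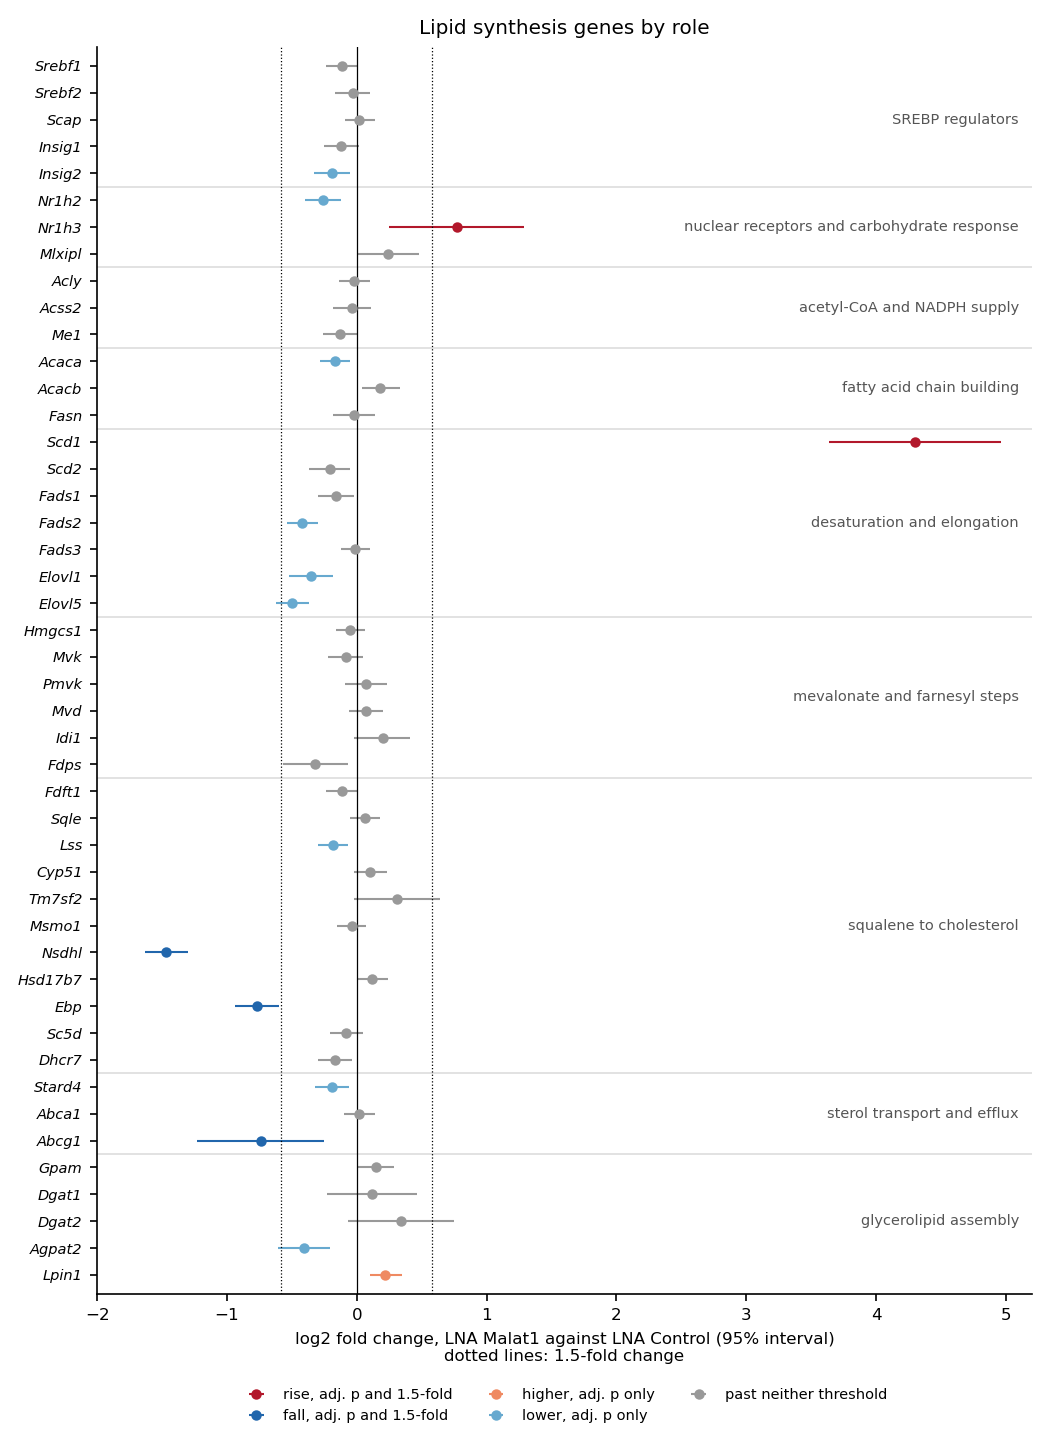
Log2 fold change of LNA Malat1 against LNA Control (x axis, with 95% intervals as bars) for the 46 tested members, grouped by role from top to bottom, with the dotted lines at a 1.5-fold change. Scd1 stands alone at 4.30, Nsdhl (-1.47) and Ebp (-0.77) lie beyond the left line, Abcg1 (-0.74) and Nr1h3 (0.77) have wide intervals, and most others lie close to 0.

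The regulators of the pathway were near their control levels. Srebf1, which encodes the SREBP forms that drive fatty acid synthesis, was at 971, 937, and 894 in the controls against 855, 820, and 921 after LNA Malat1, in the order of replicates 1, 2, and 3 as throughout. The groups overlapped (log2 fold change -0.11, 95% interval -0.24 to 0.01). Srebf2, the main activator of the cholesterol enzymes, was at 1480, 1372, and 1272 and at 1353, 1285, and 1390, overlapping as well (-0.03, -0.17 to 0.10). Scap, the escort of SREBP to the Golgi, was at 411 ± 16.8 (SD, n = 3) and 417 ± 2.47 (SD, n = 2). Insig1, the retention factor that is itself an SREBP target, was at 693, 760, and 646 and at 639, 658, and 634, with a log2 fold change of -0.12 (-0.25 to 0.02). Insig2, the second retention factor, was lower in every LNA Malat1 library (323, 372, and 348 after 396, 405, and 388) at an adjusted p of 0.038 and a log2 fold change of -0.19. This call was lost without LNA Control replicate 2 (adjusted p = 0.12), LNA Malat1 replicate 1 (0.17), or LNA Malat1 replicate 3 (0.10), with LNA Malat1 replicates 1 and 3 as 1 sample (0.12), with quantile normalization (0.13), library totals set equal (0.081), or voom weights (0.082), and without the filter on low values (0.057).

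The liver X receptor genes differed in opposite directions, each in a call that was lost with some libraries left out. Nr1h3 measured 15, 27, and 20 in the controls against 42, 34, and 30 after LNA Malat1, so that the lowest LNA Malat1 library was just above the highest LNA Control library. Its mean was 20.7 ± 6.03 (SD, n = 3) against 35.0 ± 1.41 (SD, n = 2), which is 0.77 on the log2 scale (SE 0.24, adjusted p = 0.030). Nr1h2, which encodes LXRβ, had 310, 298, and 279 in the controls against 250, 236, and 255 after LNA Malat1, without overlap (log2 fold change -0.26, SE 0.07, adjusted p = 0.011, but 0.055 without LNA Malat1 replicate 2). Per kb of exonic length Nr1h2 remained the more abundant, at 73.6 normalized counts against 14.0 for Nr1h3 in LNA Malat1, after 88.2 and 8.22 in LNA Control. The log2 ratio of Nr1h2 to Nr1h3 was 4.28, 3.42, and 3.74 in the controls against 2.55, 2.76, and 3.05 after LNA Malat1. The ratio did not overlap between the groups (exact permutation test over the 6 libraries, two-sided, p = 0.1, the smallest that 3 against 3 can give). Mlxipl, which encodes the carbohydrate-responsive factor ChREBP, was at 140 ± 14.2 (SD, n = 3) and 160 ± 26.9 (SD, n = 2), with overlapping groups. The rise of Nr1h3 is the least settled of the 5 calls together with the fall of Abcg1. Omitting replicate 1 of LNA Control gave an adjusted p of 0.071, omitting replicates 1, 2, or 3 of LNA Malat1 gave 0.14, 0.083, and 0.052, and quantile normalization gave 0.16. Among all genes with a mean from 20 to below 50, the level of Scd1, Nr1h3, and Abcg1, 19.6% rose and 3.87% fell.

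Genes for the entry into fatty acid synthesis were close to control. Acly, the ATP citrate lyase that makes cytosolic acetyl-CoA, had 1351, 1359, and 1256 in the controls against 1303, 1343, and 1266 after LNA Malat1 (log2 fold change -0.02, 95% interval -0.14 to 0.10). Acss2, which makes acetyl-CoA from acetate, was at 391 ± 21.4 (SD, n = 3) and 378 ± 14.8 (SD, n = 2). Me1, the malic enzyme that supplies NADPH, was at 827 ± 61.8 (SD, n = 3) and 747 ± 26.5 (SD, n = 2). In this group limma called none of the 3, with 1 lower at an unadjusted p of 0.05 and none past the adjusted p with voom weights. Fasn, the fatty acid synthase, had 2469, 2183, and 1963 in the controls against 2216, 2090, and 2190 after LNA Malat1, with all LNA Malat1 values inside the LNA Control range (-0.02, -0.18 to 0.14).

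The acetyl-CoA carboxylases, which make malonyl-CoA, differed in sign. Acaca, the cytosolic form that feeds synthesis, had 661, 703, and 728 in the controls against 614, 621, and 626 after LNA Malat1, lower in every library (log2 fold change -0.17, SE 0.05, adjusted p = 0.032). Acacb, the mitochondrial form whose malonyl-CoA restrains fatty acid oxidation and which is the main form in heart, was at 623 ± 52.4 (SD, n = 3) and 698 ± 33.9 (SD, n = 2), and missed the threshold (0.18, adjusted p = 0.058). The log2 ratio of Acaca to Acacb was -0.05, 0.26, and 0.29 in the controls against -0.18, -0.12, and -0.26 after LNA Malat1, without overlap (exact permutation p = 0.1, adjusted over 6 pairs 0.20). The call of Acaca held in 1 of the 6 fits that left out a library, the fit without LNA Control replicate 1. The other 5 gave adjusted p-values of 0.068 to 0.11.

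Scd1 showed the largest difference of all members and rank 2 by log2 fold change among the 15650 genes. It encodes the desaturase that turns stearoyl- and palmitoyl-CoA into monounsaturated fatty acids and is the main form in liver and fat. Its gene spans 44394455 to 44407879 of chromosome 19 (mm10), transcribed from the minus strand. Its normalized counts were 1, 2, and 2 in the controls against 53, 54, and 45 after LNA Malat1, so that it went from next to nothing to a low but clear level in every library. The recovered reads were 5 in the LNA Control libraries together and 159 in the LNA Malat1 libraries, a depth-adjusted ratio of 30.1 (95% exact interval 12.6 to 94.0, for counting error only). Scd1 passed the filter on low values only through LNA Malat1. The log2 fold change was 4.30 (SE 0.30, adjusted p = 1.1e-06) and its range was 4.10 to 4.39 when single libraries were omitted. The list of genes was drawn up with this rise known, so its size is a description.

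The desaturase that carried most of the family signal was another paralog. Scd2, the form found widely outside the liver, on the plus strand of the same chromosome at 44293674 to 44306864, had 3343, 3215, and 2740 in the controls against 2653, 2757, and 2604 after LNA Malat1. The groups overlapped through LNA Control replicate 3 and LNA Malat1 replicate 2, and the difference missed the threshold (-0.21, 95% interval -0.37 to -0.05, adjusted p = 0.052). It passed it without LNA Control replicate 3 (-0.30, adjusted p = 0.00041). Per kb of exonic length, Scd2 made up 97.6% to 97.9% of the summed level of Scd1, Scd2, Scd3, and Scd4 in LNA Control and 95.2% to 95.7% in LNA Malat1. Scd1 made up 0.0327% to 0.0796% and 1.84% to 2.13%. The family sum was 625, 601, and 514 normalized counts per kb in the controls against 508, 528, and 500 after LNA Malat1, with overlapping ranges. Scd4 had 47, 45, and 41 and then 40, 41, and 49, and Scd3, below the filter, 1, 2, and 3 and then 2, 6, and 6. The log2 ratio of Scd1 to Scd2 was -10.71, -10.07, and -9.84 in the controls against -5.62, -5.65, and -5.82 after LNA Malat1 (exact permutation p = 0.1, adjusted over 6 pairs 0.20). The rise of Scd1, known beforehand, fixed the separation of this ratio, so its p-value adds no support. The paralogs share coding sequence, and reads that aligned to several places were left out by the authors, so levels between the 4 are less certain than changes within each.

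**Figure D2:**
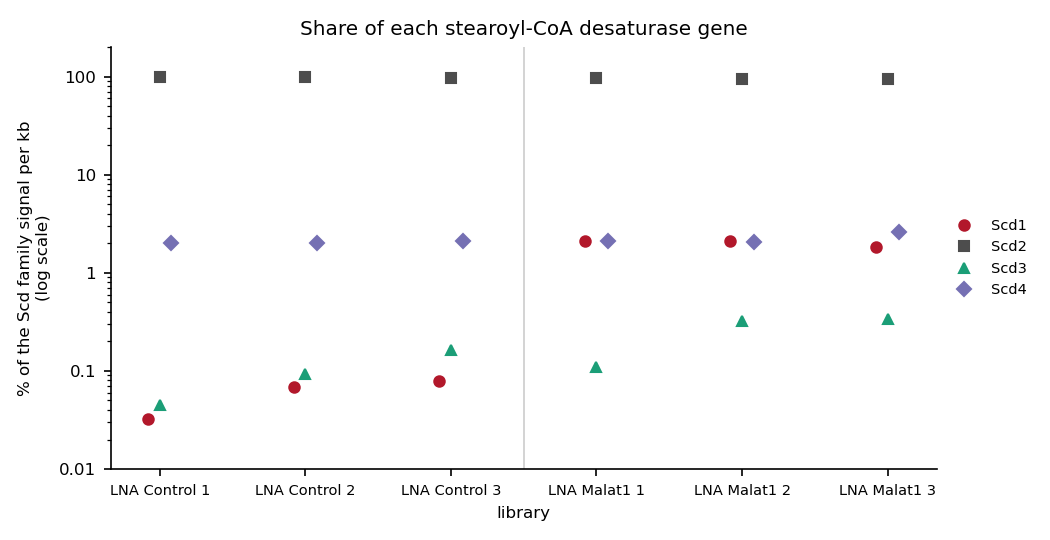
Share of each stearoyl-CoA desaturase gene in the family sum per kb of exonic length (y axis, percent, log scale) in each of the 6 libraries (x axis). Scd2 (squares) stays above 95%, Scd4 (diamonds) near 2%, and Scd1 (circles) lies below 0.1% in LNA Control and near 2% in LNA Malat1.

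Within 500 kb of Scd1, 14 genes including Scd1 were tested, and of the 13 others 2 were higher and 2 lower at the adjusted p. These counts are near the shares of all genes tested, of which 14.3% were higher and 14.0% lower. On chromosome 19 the shares were 15.3% and 16.6%. Gm50323, an antisense RNA that overlaps Scd3 and starts at -161.3 kb from Scd1, rose from 10, 4, and 10 to 23, 36, and 29 (log2 fold change 1.82, SE 0.34, adjusted p = 0.0017). Reads assigned to several genes were left out, and whether the counting used strand is not stated, so the level of Gm50323 is uncertain to that extent. Bloc1s2, a subunit of a lysosome-related organelle complex, was higher (0.45, adjusted p = 0.044), but at adjusted p-values of 0.055 to 0.16 with any library left out. Erlin1, an endoplasmic reticulum protein that restrains SREBP activation (-0.36, adjusted p = 0.00046), and Ndufb8, a subunit of respiratory complex I (-0.44, adjusted p = 0.0021), were lower. The others, Dnmbp (0.16), Chuk (0.13), Cwf19l1 (0.12), Gm24336 (-0.23), Scd2 (-0.21), Gm50334 (0.69), Scd4 (-0.04), Sec31b (0.19), and Hif1an (-0.02), did not pass. Over the 6 libraries the genes outside the lists with log2 values most like those of Scd1, among 1242 other genes that rose, were Zkscan7 (Pearson r = 0.9989), 5430403N17Rik (0.9988), Iqcg (0.9986), 1200007C13Rik (0.9982), and Olfml2a (0.9974). With 3 libraries per group such a correlation mostly restates the group difference.

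**Figure D3:**
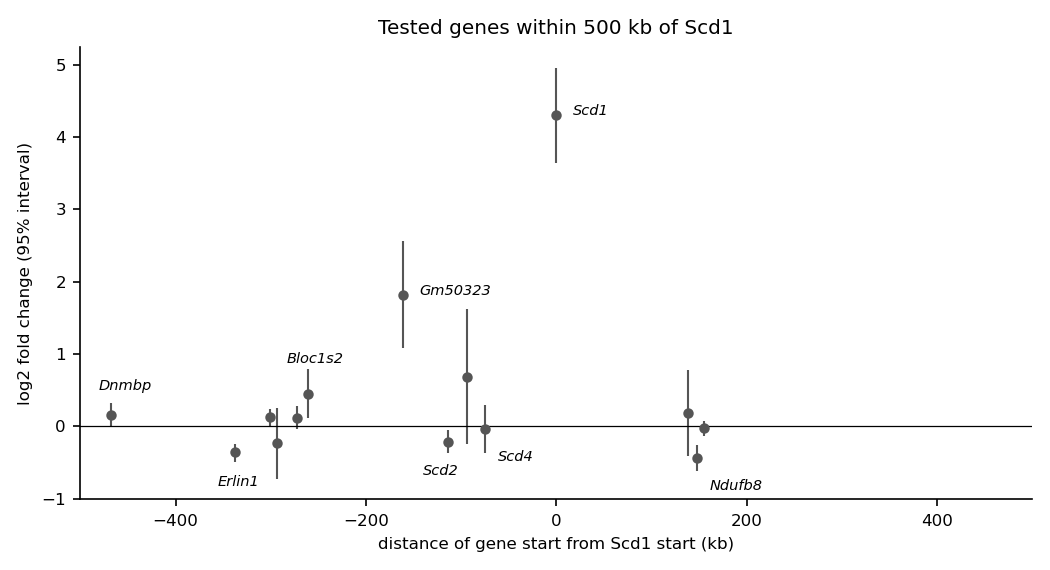
Log2 fold change with 95% intervals (y axis) of the 14 tested genes within 500 kb of Scd1 against the distance of their start from that of Scd1 (x axis, kb). Scd1 is at 4.30, Gm50323 at 1.82, and the remaining genes lie between -0.44 and 0.69.

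Of 7 genes for desaturation and elongation, Scd1 rose and Fads2, Elovl5, and Elovl1 were lower at the adjusted p. That is 14.3% higher and 42.9% lower, where 14.3% and 14.0% of all genes were. Among genes with a mean of at least 50 the shares were 12.2% and 19.7%. Fads2, the desaturase at the entry of polyunsaturated fatty acid synthesis, had 1522, 1541, and 1400 in the controls against 1102, 1128, and 1102 after LNA Malat1 (log2 fold change -0.42, SE 0.05, adjusted p = 1.1e-04). Elovl5, which elongates its products, had 740, 685, and 665 and then 483, 512, and 486 (-0.50, SE 0.06, adjusted p = 4.7e-05). Elovl1, the elongase of very long saturated chains, had 277, 237, and 262 and then 205, 186, and 217 (-0.35, SE 0.08, adjusted p = 0.0062). The groups did not overlap in any of the 3, the changes were under 1.5-fold, and each kept an adjusted p of at most 0.05 with any library left out. Fads1, the desaturase that acts after Fads2, lay below LNA Control in every LNA Malat1 library without passing (-0.16, adjusted p = 0.075), while Fads3, a related desaturase, was at 562 ± 8.66 (SD, n = 3) and 561 ± 9.90 (SD, n = 2). Fads1, Fads2, and Fads3 stand side by side on chromosome 19. Scd2 and Fads2 were also the most abundant members per kb in LNA Control (567 and 451 normalized counts per kb), followed by Sc5d (365) and Fads1 (317), and Scd1 was the lowest (0.341).

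Of the 17 members of the sterol route, 2 late enzymes fell by at least 1.5-fold and the other 15 did not. Acat2, a gene of the same route outside the members, fell as well, to 63.1% of the control mean. Nsdhl, the sterol dehydrogenase that takes part in the removal of the methyl groups at the fourth ring carbon, lies on the plus strand of chromosome X (72918557 to 72958514). It had 270, 283, and 259 in the controls against 96, 101, and 95 after LNA Malat1, a fall to 36.3% of the control mean (log2 fold change -1.47, SE 0.08, adjusted p = 1.6e-07). Ebp, the sterol isomerase that shifts a double bond within the sterol rings, lies on the minus strand of chromosome X (8185329 to 8193512). It had 516, 559, and 466 and then 301, 324, and 277, a fall to 59.7% (-0.77, SE 0.08, adjusted p = 1.5e-05). In both genes the libraries of each group were close together and far from the other group. No other gene of the table overlaps Nsdhl or Ebp. Both calls held with each library left out and after each other scaling, while a test against a 1.5-fold change kept Nsdhl (adjusted p = 3.5e-05) and not Ebp (0.39).

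The windows of 250 bases before the start of Nsdhl, Ebp, and Hmgcs1, described next, are shown because these genes share a route while only Nsdhl and Ebp fell. The sequences are from RefSeq on GRCm38.p6, the build of the files, on the strand of the gene, with capitals for matches on either strand to the sterol response element TCACNCCAC, the NF-Y box CCAAT, and the E-box CACGTG.
Nsdhl (chrX:72918271-72918520, plus strand): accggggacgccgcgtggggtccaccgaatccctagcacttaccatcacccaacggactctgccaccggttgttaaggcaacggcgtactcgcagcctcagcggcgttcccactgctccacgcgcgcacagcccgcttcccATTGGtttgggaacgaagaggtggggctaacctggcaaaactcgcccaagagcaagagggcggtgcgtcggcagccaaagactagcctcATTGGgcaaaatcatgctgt
Ebp (chrX:8193513-8193762, minus strand): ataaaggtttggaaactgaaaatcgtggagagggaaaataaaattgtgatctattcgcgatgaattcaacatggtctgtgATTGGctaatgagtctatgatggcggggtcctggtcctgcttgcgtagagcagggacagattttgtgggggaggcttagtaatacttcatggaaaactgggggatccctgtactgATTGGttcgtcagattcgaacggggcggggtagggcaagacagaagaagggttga
Hmgcs1 (chr13:119690101-119690350, plus strand): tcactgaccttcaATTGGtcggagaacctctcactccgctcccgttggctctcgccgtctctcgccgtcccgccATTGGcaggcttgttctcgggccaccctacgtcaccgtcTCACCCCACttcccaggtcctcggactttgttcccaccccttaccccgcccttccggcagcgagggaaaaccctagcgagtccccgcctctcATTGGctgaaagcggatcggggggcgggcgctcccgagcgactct
Nsdhl and Ebp each hold 2 NF-Y boxes and no match to the other motifs, Hmgcs1 holds 3 NF-Y boxes and 1 sterol response element, and no match overlaps another in these windows. The tables gave a window for 39 of the 49 listed genes, 36 of them tested. An NF-Y box was found in 27 of the 36 (75.0%), against 40.8% of 10587 tested genes with a window. The sterol response element was found in 2 (5.56%, Hmgcs1 and Mlxipl, against 1.27%) and the E-box in 8 (22.2% against 9.86%), counting a gene with several windows once. An NF-Y box was present in 6 of 10 members lower at the adjusted p, in none of 2 that were higher, and in 21 of 24 that passed neither way. Such matches describe letters in a window and not bound sites.

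Among the members, the earlier steps were measured well and changed little. Hmgcs1, the HMG-CoA synthase, had 932, 929, and 864 in the controls against 885, 875, and 868 after LNA Malat1 (log2 fold change -0.05, 95% interval -0.16 to 0.06). The mevalonate kinases and decarboxylase Mvk, Pmvk, and Mvd were between -0.08 and 0.07 on the log2 scale. Idi1, the isopentenyl isomerase, was above LNA Control in every LNA Malat1 library (97, 107, and 95 after 87, 85, and 88) without passing (0.20, adjusted p = 0.16), and Fdps, the farnesyl diphosphate synthase, was below it (71, 69, and 66 after 96, 81, and 82), at an adjusted p of 0.055. In limma none of these 6 members passed the adjusted p, with 1 lower at an unadjusted p of 0.05 and none past the adjusted p with voom weights.

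From squalene on, Fdft1 (-0.11) and Sqle, the squalene epoxidase (706, 674, and 652 and then 711, 685, and 728, log2 fold change 0.06), overlapped between the groups. Lss, which closes the sterol rings, was lower in every LNA Malat1 library (687, 754, and 725 after 835, 821, and 799, log2 fold change -0.18, SE 0.05, adjusted p = 0.023). It missed the threshold without LNA Control replicate 2 (0.070), LNA Malat1 replicate 1 (0.12), or LNA Malat1 replicate 3 (0.072). The demethylase Cyp51 (0.10), the reductase Tm7sf2 (0.31), the methyl oxidase Msmo1 (-0.04), the keto-reductase Hsd17b7 (0.12), the desaturase Sc5d (-0.08), and the last-step reductase Dhcr7 (-0.17, adjusted p = 0.051) did not pass. Msmo1, Nsdhl, and Hsd17b7 encode enzymes of the same demethylation, and their LNA Malat1 means were 97.5%, 36.3%, and 110% of those of LNA Control. Without Nsdhl and Ebp, the 15 other members of the sterol route had libraries at 76.4% to 129% of their LNA Control means in LNA Malat1 and at 92.1% to 111% in LNA Control.

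**Figure D4:**
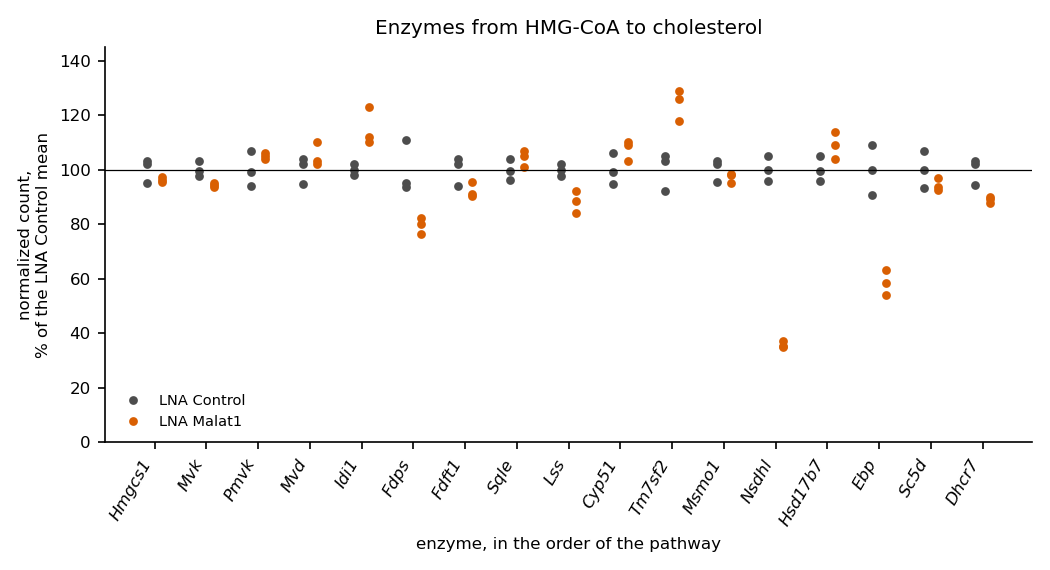
Normalized count of each library as percent of the LNA Control mean (y axis) for the 17 members of the sterol route in pathway order (x axis). Nsdhl (35.1% to 37.3%) and Ebp (53.9% to 63.1%) stand below all others in LNA Malat1.

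Of the sterol transport genes, Abcg1, the exporter of cholesterol to mature lipoproteins on the plus strand of chromosome 17 (31057675 to 31117988), fell. It had 47, 28, and 39 in the controls against 22, 19, and 25 after LNA Malat1, so that the groups were 3 normalized counts apart at the closest. Its mean was 38.0 ± 9.54 (SD, n = 3) and 21.2 ± 3.18 (SD, n = 2), which is -0.74 on the log2 scale (SE 0.22, adjusted p = 0.027). Abca1, the exporter to lipid-poor apolipoproteins and like Abcg1 a known LXR target, had 1742, 1709, and 1672 and then 1643, 1719, and 1820, with overlap and a log2 fold change of 0.02 (95% interval -0.10 to 0.14). Stard4, a carrier of cholesterol between membranes, was lower (714, 812, and 723 after 833, 880, and 850, log2 fold change -0.19, adjusted p = 0.030). For Abcg1, omitting replicates 1 or 3 of LNA Control gave an adjusted p of 0.083 and 0.053, and omitting replicates 1 or 2 of LNA Malat1 gave 0.078 and 0.10. That of Stard4 was 0.11, 0.14, and 0.13 without LNA Control replicate 2, LNA Malat1 replicate 1, and LNA Malat1 replicate 3.

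**Figure D5:**
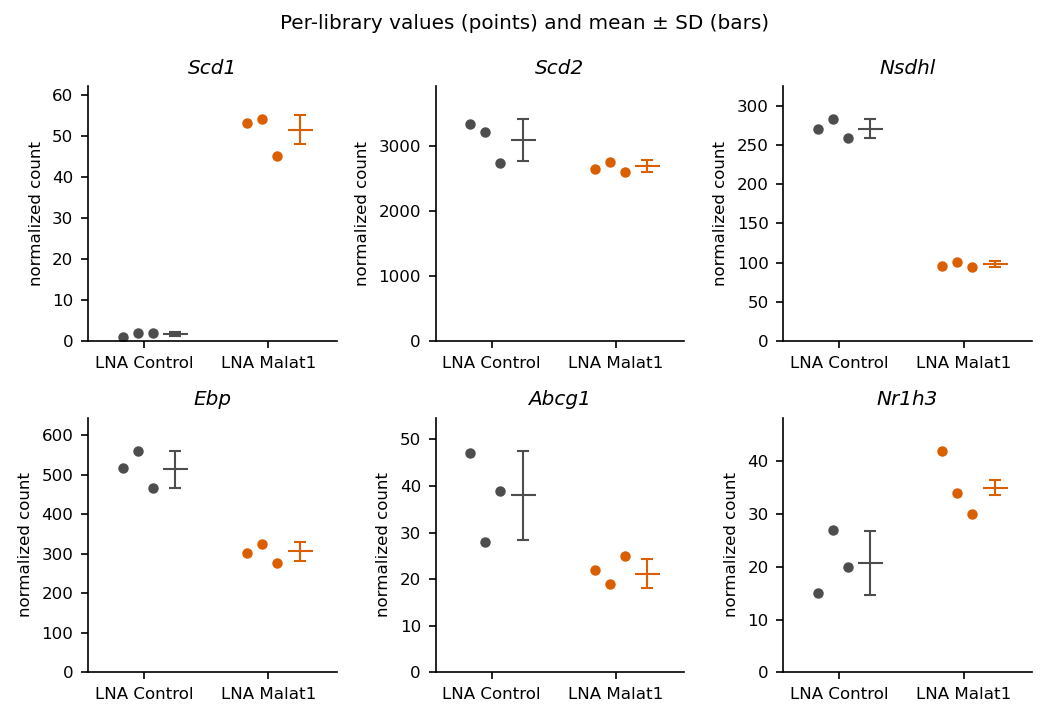
Normalized counts (y axes, from 0) of Scd1, Scd2, Nsdhl, Ebp, Abcg1, and Nr1h3 in the 3 LNA Control and 3 LNA Malat1 libraries (points), with mean ± SD beside them, where LNA Malat1 replicates 1 and 3 enter the mean as 1 sample. Scd1, Nsdhl, and Ebp separate widely, Abcg1 and Nr1h3 narrowly, and Scd2 overlaps.

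In glycerolipid assembly, an acyltransferase and a phosphatase moved in opposite directions. Agpat2, which adds the second fatty acid to the glycerol backbone, had 189, 180, and 154 in the controls against 131, 136, and 125 after LNA Malat1 (log2 fold change -0.41, SE 0.09, adjusted p = 0.0054), and kept its call with each library left out. Lpin1, the phosphatidate phosphatase that makes diacylglycerol and also acts as a coactivator of fatty acid oxidation genes, had 708, 704, and 629 and then 781, 782, and 815 (0.22, SE 0.06, adjusted p = 0.013), but an adjusted p of 0.068 without LNA Malat1 replicate 3. Gpam, the acyltransferase of the first step, lay above LNA Control in every LNA Malat1 library without passing (0.15, adjusted p = 0.11). The diacylglycerol acyltransferases Dgat1 (0.12) and Dgat2 (0.34), which make triglyceride, overlapped between the groups. The log2 ratios of the remaining pairs differed by 0.07 for Insig1 to Insig2, by -0.08 for Srebf1 to Srebf2, and by -0.22 for Dgat1 to Dgat2, at exact permutation p-values of 0.4, 0.2, and 0.5.

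Further genes of the same routes gave a similar mixture. Of 84 listed genes 70 were tested, and 4 of these rose and 4 fell by at least 1.5-fold, which is 5.71% each beside 8.0% and 2.92% of all genes tested. At the adjusted p alone 8 were higher (11.4%) and 21 lower (30.0%), with a median log2 fold change of -0.09, beside 14.3% and 14.0% of all genes, and 12.2% and 19.7% of genes with a mean of at least 50. Among 14 further genes of cholesterol synthesis and uptake, the 2 that fell were Acat2, the cytosolic thiolase at the entry of the mevalonate route (241, 263, and 245 and then 146, 173, and 138, log2 fold change -0.71, adjusted p = 8.5e-05), and Lipa, the lysosomal lipase that frees cholesterol from its esters (572, 489, and 534 and then 341, 344, and 353, -0.62, adjusted p = 1.9e-05). Of the same 14 genes, Lbr (-0.33, adjusted p = 0.00067) and Nceh1 (-0.43, adjusted p = 0.00012) were lower by less than 1.5-fold, and none was higher. Of 8 genes for SREBP processing and degradation, Erlin1 (-0.36) and Fbxw7, a ubiquitin ligase subunit that marks SREBP for degradation (-0.37, adjusted p = 0.0020), were lower. The proteases that cleave SREBP, Mbtps1 (0.08) and Mbtps2 (0.21), did not pass.

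Of 20 tested genes of fatty acid synthesis, elongation, and activation, Acsl6, an acyl-CoA synthetase with preference for polyunsaturated chains, fell from 101, 86, and 97 to 34, 49, and 42 (-1.18, SE 0.15, adjusted p = 1.1e-04). Of these 20, 6 were lower (30.0%) and 1 was higher (5.0%) at the adjusted p, where 14.0% and 14.3% of all genes were. Among 18 genes for glycerolipids and lipid droplets, Lpin3, a relative of Lpin1 (37, 27, and 49 and then 80, 58, and 74, log2 fold change 0.92, adjusted p = 0.0055), and the droplet coat gene Plin4 (7, 5, and 9 and then 23, 23, and 13, 1.36, adjusted p = 0.0088) rose, and Fitm1, which helps droplets form in muscle, fell (109, 105, and 118 and then 62, 68, and 73, -0.70, adjusted p = 5.1e-04). Among 10 genes of LXR partners and further targets, 3 were higher and 3 lower at the adjusted p (30.0% each). Of these the sterol exporter Abcg4 (77, 77, and 64 and then 116, 112, and 122, 0.68, adjusted p = 6.4e-04) and the small GTPase gene Arl4c, at very low counts (4, 2, and 1 and then 11, 5, and 7, 1.42, adjusted p = 0.046), rose. The 1.5-fold calls of Lipa (-0.56 without LNA Control replicate 1), Plin4 (adjusted p = 0.059 and 0.055 without LNA Malat1 replicates 1 and 2), and Arl4c (0.096, 0.098, and 0.064 without LNA Control replicates 2 and 3 and LNA Malat1 replicate 2) were lost in those fits. Arl4c passed the filter on low values only through LNA Malat1, fell below it without LNA Malat1 replicate 1 or 3, and kept its call only without LNA Control replicate 1. In the same list Apoe, the apolipoprotein E gene, was higher (0.25, adjusted p = 0.047), and Lpl, the lipoprotein lipase gene (-0.15, adjusted p = 0.036), the LXR partner Rxrb (-0.23, adjusted p = 0.049), and the corepressor gene Ncor1 (-0.21, adjusted p = 0.014) were lower.

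Marker lists were read beside these values, since Scd1 is abundant in liver and fat and Abcg1 and Nr1h3 in macrophages. Of 12 cardiomyocyte markers 10 were analysed, with a summed level of 12085 to 15815 in LNA Control and 18713 to 19891 in LNA Malat1, carried mostly by Ttn, the titin gene (8524 to 12110 and 15112 to 16320, log2 fold change 0.66, adjusted p = 0.0013). Without Ttn the other 9 summed to 3561 to 3705 and 3566 to 3601, and of the 8 tested Tnnt2 was higher (0.15, adjusted p = 0.034) and Gata4 lower (-0.21, adjusted p = 0.0079). Of these cardiomyocyte markers, Myh6, Myl7, and Myl4 were weak, at 0 to 7, 18 to 32, and 30 to 49 per library. Adipocyte markers (4 of 7 analysed) summed to 20 to 35 and 23 to 26. Hepatocyte markers (3 of 7) summed to 28 to 76 and 173 to 183, all but a few counts of it Apob, which rose (log2 fold change 2.02, adjusted p = 1.2e-04), while Alb was at 0 to 2 and 4 to 7 and Hnf4a at 0 and 1 to 4. Macrophage markers (2 of 4) summed to 32 to 36 and 54 to 81, with Cd68 (0.79, adjusted p = 0.023) and Csf1r (1.19, adjusted p = 0.013) up, although neither passed without LNA Malat1 replicate 1 (0.10 and 0.082) or replicate 2 (0.067 in both), and Cd68 also not without LNA Control replicate 2 (0.079) or LNA Malat1 replicate 3 (0.054). Of all genes at the level of Cd68 and Csf1r, a mean from 20 to below 50, 19.6% rose and 3.87% fell. Fibroblast markers (3 of 5) summed to 1953 to 2530 and 1824 to 1957, nearly all Col1a1, and endothelial markers (2 of 4) to 19 to 28 and 32 to 35. The part of these markers in the results was not tested. In RNA of a whole culture, fewer cells with a transcript and less transcript per cell cannot be told apart.

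Of the 47 members, 19 overlap the span of another gene of the table on some strand, and for 10 of them that gene has a mean of at least 20, among them Srebf1 with Rai1, Cyp51 with Akap9, Fdft1 with Ctsb, Elovl1 with Cdc20, and Agpat2 with Egfl7. Reads assigned to several genes were left out, and whether the counting used strand is not stated, so the levels of these members are uncertain to that extent. Of the 5 called members, Nr1h3 alone has such a partner, Gm13783, with a mean of 2.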

How the data were processed

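RNA-seq libraries of HL-1 cells, 3 of LNA Control and 3 of LNA Malat1, were compared. Per the methods and labels, the authors used Trimmomatic 0.39 for trimming, STAR 2.7.7a for alignment to mm10 with an Ensembl annotation, featureCounts 1.6.5 to count reads on exons without those that hit more than 1 gene or region, and DESeq2 1.30.0. The deposited values are a score made by the authors, namely counts divided by 1 factor per library and rounded, so no count model was applied. Factors and reads were recovered from the gaps that rounding leaves, and that of LNA Malat1 replicate 2 is less certain.

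Genes with a mean of at least 5 (15650 of 21269) entered a two-sided limma test (limma 3.58.1, R 4.3.3, lmFit, eBayes with a trend) of log2(normalized count + 1), adjusted by Benjamini-Hochberg over all genes. Calls required adjusted p ≤ 0.05 with a change of 1.5-fold or more, or, where said, the adjusted p alone. On simulated data for this comparison, 97% of 198 genes changed 3-fold among 15441 were recovered, with 5 unchanged genes called. The simulated libraries were independent and had the same spread in both groups. The result therefore does not cover the unequal spread of these groups or changes smaller than 3-fold. Ratios of 6 paralog pairs were tested by exact permutation (scipy 1.17.1). Exonic lengths are from GENCODE M21.

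Named genes were Malat1, all members called, the genes that lead a step, called genes of the pathway lists, all tested genes within 500 kb of Scd1, and the 5 genes most like Scd1. Members and lists were chosen with earlier results of these data known. Singly named members beyond this rule were chosen after their values were seen. Alternatives were a replicate block, other pseudocounts (0.1 and 5), 3 scalings, other filters and fold minimums, each library left out, LNA Malat1 replicates 1 and 3 as 1 sample, and, chosen after seeing the data, voom weights on the recovered reads. All columns of values were mapped to samples. Intervals cover counting error or the spread between these libraries only.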

Additional observations from a re-analysis of the deposited data

How the results depend on the processing

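Scd1, Nsdhl, and Ebp kept their calls with each library left out and under each scaling and pseudocount tried. For the 5 called members 68 of 82 alternative values stayed on their side of the threshold and 14 missed it, and for the 15 members past the adjusted p 195 of 252 stayed and 57 missed it. For the other 31 members 476 of 525 stayed, 24 passed, and 25 changed sign. The cause of these changes was not tested. With the replicate block, 5 members were higher at the adjusted p in place of 3, with Mlxipl (0.24, adjusted p = 0.044) and Acacb (0.18, adjusted p = 0.043) added, and 13 were lower, with Scd2 (adjusted p = 0.020) added. The replicate block changed no call made with a fold minimum among the members. Same-numbered libraries correlated at 0.086, 0.182, and 0.083 in their deviations from the group means, so the numbers were not taken to pair the samples, although each library correlated best with its own number.

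With quantile normalization 748 genes rose and 718 fell, and 1 member rose and 6 were higher and 10 lower at the adjusted p, without Insig2 (0.13), Acaca (0.17), Lss (0.083), and Stard4 (0.087). Scd2 (-0.17, adjusted p = 0.028) and Fdps (-0.40, 0.026) were added as lower. Acacb (0.24, 0.014), Cyp51 (0.16, 0.029), Hsd17b7 (0.19, 0.027), and Gpam (0.20, 0.038) were added as higher. Values near 0 became positive there, with Srebf2 at 0.02, Acly at 0.04, Acss2 at 0.02, Fasn at 0.03, Fads3 at 0.06, and Msmo1 at 0.02. With library totals set equal 5 members were higher and 8 lower, without Insig2 (0.081), Acaca (0.084), Stard4 (0.065), and Lss, which lay just above the threshold, with Srebf2 at 0.00, Acly at 0.02, Acss2 at 0.00, Fasn at 0.02, and Fads3 at 0.03. Acacb (0.22, adjusted p = 0.027) and Gpam (0.19, 0.048) were added as higher at that scaling. With voom weights 5 were higher and 9 lower, without Insig2 (0.082), Acaca (0.083), and Stard4 (0.063), with Srebf2 at 0.01, Acly at 0.02, Fasn at 0.02, and Fads3 at 0.03. With a mean of at least 50, 317 genes rose, 1 member was higher, 2 further pathway genes rose, and members that rose numbered 0, since Scd1 and Nr1h3 are not tested there (limma, 4 higher at an unadjusted p of 0.05 among the 41 in the fit with all genes and 3 past the adjusted p with voom weights). With a fold change of at least 2, 742 genes rose and 99 fell, 1 member rose and 1 fell, and 2 further pathway genes rose and 1 fell. In limma's test against a 1.5-fold change, 192 genes rose and 99 fell, 1 member rose and 1 fell, 0 further pathway genes rose (1 at an unadjusted p of 0.05) and 1 fell, and Malat1 (-0.80) had an adjusted p of 0.18. With replicates 1 and 3 of LNA Malat1 averaged, 796 genes and 1 member rose, 1 member was higher, and 7 were lower.

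With each library left out, 769 to 1621 genes rose, 1 to 2 members rose and 2 to 3 fell, 1 to 3 members were higher and 7 to 16 lower, and 2 to 4 further pathway genes rose and 3 to 5 fell. Sign changes near 0 were Srebf2 (-0.09 to 0.02), Fasn (-0.10 to 0.06), Fads3 (-0.02 to 0.01), Acly (-0.06 to 0.00), Acss2 (-0.09 to 0.01), Dgat1 (-0.03 to 0.22), and Abca1 (-0.02 to 0.05). The difference in the log2 ratio of Scd1 to Scd2, 4.51, was 5.11 with a pseudocount of 0.1 and 3.27 with 5, and 4.25 to 4.69 with each library left out. The 5 reads of Scd1 in LNA Control limit how well its fold change is known.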
